A study of Mus musculus with 9 samples.

Results

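9 genes of purinergic signalling were examined in RNA-seq of primary mouse microglia. They encode the ATP-gated channels P2rx4 and P2rx7, the nucleotide receptors P2ry6 and P2ry14, the adenosine receptors Adora2a, Adora2b, and Adora3, and the ectonucleotidases Entpd1 and Nt5e. The genes were chosen by symbol, and the counts of all their transcripts were summed. All 9 of 9 were found among the 54119 genes of the table, and all 9 were among the 16273 genes with enough counts to be tested. Nt5e passed that filter, which needs 3 libraries, only through knockdown libraries, 3 of Tsc2 siRNA and 2 of Chd8 siRNA, with 0 of control siRNA. The cells were C57BL/6J microglia shaken off mixed glial cultures of whole late embryonic brains, given negative control siRNA, Chd8 siRNA, or Tsc2 siRNA with a lipid reagent, with 3 libraries of each. Chd8 encodes a chromatin remodeler and Tsc2 a brake on mTOR signalling, and both are linked to autism. All 3 groups shared the strain, the culture, and the transfection. According to the methods, RNA was taken 3 days after siRNA, whereas the results section describes 3 days of lipopolysaccharide (LPS), an inflammatory stimulus, and the labels name no LPS. Knockdown by siRNA was partial, and each library is bulk RNA of a culture, in which fewer cells of a type and less RNA per cell cannot be told apart.

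Purinergic signalling lets cells sense nucleotides that injured or active neighbours release. P2X receptors are cation channels opened by ATP, P2Y receptors are coupled to G proteins and bind ATP, UDP, or UDP-sugars, and P1 receptors bind adenosine. On the cell surface, CD39, the product of Entpd1, removes phosphates from ATP and ADP to give AMP, and CD73, the product of Nt5e, turns AMP into adenosine. In microglia these receptors are known for steering process movement, phagocytosis, and inflammasome activation, and P2ry12 and Tmem119 are marks of resting microglia in the brain.

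Total counts were between 16913448 and 33213801 per library, and 3 counts, taken as the smallest detectable number, were worth 0.0903 to 0.177 CPM (counts divided by the library total and multiplied by a fixed factor), a floor that covers counting error only. Of 13 microglial markers, 12 were above 3 counts in all 9 libraries, with a summed level of 3230 to 4656 normalized CPM. Tmem119 was the exception, at 0 in control 2, Tsc2 1, and Tsc2 2 and at most 1.11 normalized CPM elsewhere. Chd8 was at 118, 97.3, and 93.5 normalized CPM in control siRNA and at 86.7, 44.5, and 38.2 in Chd8 siRNA, and Tsc2 was at 40.8, 39.9, and 38.9 in control siRNA and at 24.6, 30.6, and 36.4 in Tsc2 siRNA. Each targeted gene was thus lower in all 3 of its knockdown libraries, by log2 fold changes of −0.86 (SE 0.28) and −0.38 (SE 0.15). In edgeR's quasi-likelihood test neither was called (adjusted p = 1.00 for both), and with the replicate number as a block Chd8 was called at −0.93 (adjusted p = 0.00777) and Tsc2, at −0.39 (adjusted p = 0.219), was not.

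The libraries carried the numbers 1, 2, and 3 within each group, and libraries of the same number resembled each other. Deviations from the group means over all genes correlated between 0.24 and 0.52 in the 9 pairs of same-numbered libraries and between −0.38 and 0.04 in the 18 other pairs. Values of each gene are therefore given in the order of these numbers. Fits with the number as a block, that is, comparing libraries within a number, are given beside those without it.

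Per unit of transcript length, the receptors for ATP and UDP led the group. Levels in TPM, which corrects for transcript length and scales to a common total, were calculated from the estimated counts and annotated transcript lengths. P2rx4, a channel for ATP, had the highest level, with 35.5 ± 7.16 TPM (SD, n = 3) in control siRNA, above 94.1% of the genes tested. P2ry6, the UDP receptor that triggers phagocytosis, followed with 17.8 ± 7.65 TPM (SD, n = 3), and Adora2a, the cAMP-raising receptor for adenosine, with 6.04 ± 2.20 TPM (SD, n = 3). The control libraries of these 3 genes did not overlap with those of the next gene in the order. Below them, Adora2b had 2.27 ± 0.92 TPM, Entpd1 1.87 ± 0.38, P2ry14 1.48 ± 0.75, P2rx7 1.17 ± 0.22, and Adora3 1.03 ± 0.77 (SD, n = 3 each), and neighbours in this order overlapped in their control libraries. Nt5e was last with 0.0312 ± 0.00247 TPM (SD, n = 3), below all the others in every control library and above only 0.81% of the genes tested.

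**Figure D1:**
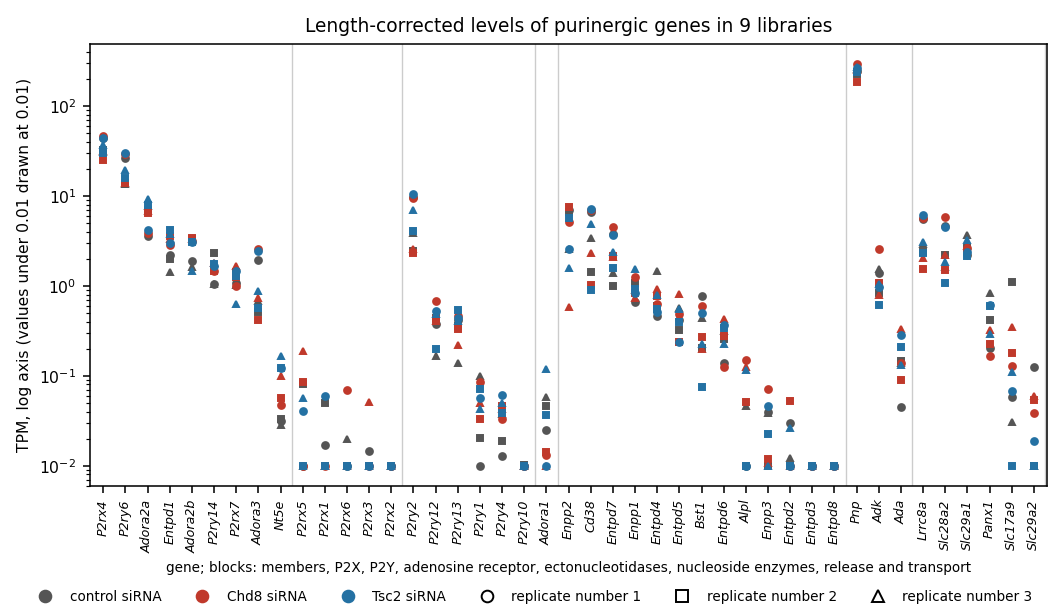
TPM on a log axis of the 9 genes and of 34 other purinergic genes, one point per library, colored by siRNA and shaped by replicate number. P2rx4 lies between 25.3 and 46.5 TPM and Nt5e between 0.0285 and 0.165 TPM, and 3 of the other genes, P2rx2, Entpd3, and Entpd8, had 0 counts in all libraries.

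The other purinergic genes placed these levels in context. Of 34 listed, 19 were tested. None of the 5 other P2X receptors and not the adenosine receptor Adora1 passed the filter on counts, so that P2rx4 and P2rx7 were the P2X receptors detected well enough to test. Among the 6 other P2Y receptors, 3 were tested. P2ry2, a receptor for ATP and UTP, led them with 5.39 TPM in control siRNA, whereas P2ry12 and P2ry13, the ADP receptors of resting microglia, had 0.33 and 0.31 TPM. Enpp2 led the 8 of 13 other ectonucleotidases tested, with 5.35 TPM, Lrrc8a the 5 of 6 genes of release and transport tested, with 3.62 TPM, and Pnp the 3 nucleoside enzymes, with 243 TPM, although Pnp and its close paralog Pnp2 may share reads.

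**Figure D2:**
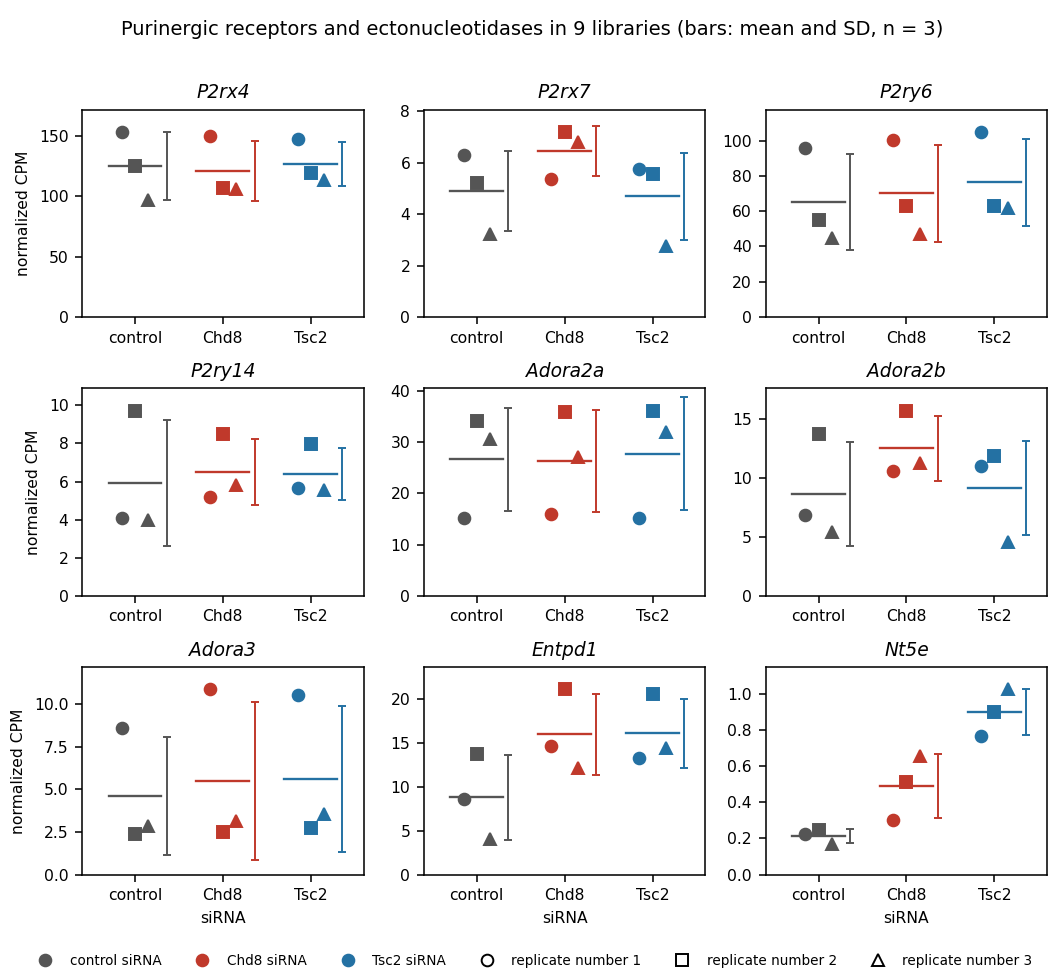
Normalized CPM of the 9 genes in each library, by siRNA on the x axis and by replicate number as the shape of the point, with the mean and SD of each group (n = 3). The scale differs between panels and starts at 0, and the control and knockdown libraries overlap in every gene except Nt5e.

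P2rx4 was at 153, 125, and 96.4 normalized CPM in control siRNA libraries 1 to 3, at 149, 107, and 106 in Chd8 siRNA, with 147, 119, and 114 in Tsc2 siRNA. The groups overlapped throughout, and library 1 was the highest of each. Its log2 fold change was −0.05 (SE 0.20, 95% interval −0.50 to 0.40) for Chd8 siRNA and 0.02 (SE 0.20, −0.43 to 0.47) for Tsc2 siRNA. Within replicate numbers the intervals narrowed to −0.23 to 0.14 and −0.15 to 0.22. Its transcripts were mixed, with 71.7% of its counts in protein-coding transcripts and 23.7% in transcripts annotated as retaining an intron.

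P2rx7, the channel that opens at high ATP and leads to inflammasome activation, had 6.29, 5.23, and 3.21 normalized CPM in control siRNA, 5.35, 7.20, and 6.82 in Chd8 siRNA, with 5.76, 5.56, and 2.75 in Tsc2 siRNA. Library 3 was the lowest of the control and of the Tsc2 siRNA group but not of the Chd8 siRNA group. Log2 fold changes were 0.39 (SE 0.35) for Chd8 siRNA and −0.07 (SE 0.35) for Tsc2 siRNA, and within replicate numbers 0.46 (SE 0.28) and −0.09 (SE 0.28). With one library left out, the value for Chd8 siRNA ranged from 0.16 to 0.62, and within replicate numbers from 0.083 to 0.78.

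P2ry6 was at 96.1, 54.9, and 45.0 normalized CPM in control siRNA, at 101, 63.0, and 46.9 in Chd8 siRNA, with 105, 62.8, and 61.6 in Tsc2 siRNA. Each knockdown library was above the control library of its number, while the groups overlapped, and library 1 was far above libraries 2 and 3 in each. The log2 fold change for Tsc2 siRNA was 0.23 (SE 0.35) and, within replicate numbers, 0.26 (SE 0.10, adjusted p = 0.322). For Chd8 siRNA it was 0.10 (SE 0.35) and, within replicate numbers, 0.11 (SE 0.10). The annotation places a short gene of unknown type, Gm44545, on the opposite strand of P2ry6, and reads of the pair can be told apart only if strand was used in counting, which is not given in the sources used here.

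P2ry14, a receptor for UDP-glucose, had 4.07, 9.72, and 3.99 normalized CPM in control siRNA, 5.19, 8.47, and 5.83 in Chd8 siRNA, with 5.67, 7.96, and 5.56 in Tsc2 siRNA. Library 2 was the highest of every group. Log2 fold changes were 0.14 (SE 0.38) for Chd8 siRNA and 0.12 (SE 0.38) for Tsc2 siRNA, and within replicate numbers 0.22 (SE 0.23) and 0.21 (SE 0.23). The coding transcript P2ry14-203, singled out after its values were seen, had 0 counts in the 3 control libraries, 0, 18, and 16 in Chd8 siRNA, with 11, 32, and 75 in Tsc2 siRNA. Transcripts of one gene share most of their sequence, so that the division of counts between them is an estimate, and the sum over the gene overlapped between the groups. Med12l overlaps P2ry14 on the opposite strand.

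Adora2a was at 15.1, 34.1, and 30.7 normalized CPM in control siRNA, at 15.9, 35.9, and 27.2 in Chd8 siRNA, with 15.3, 36.2, and 32.0 in Tsc2 siRNA. The 3 libraries numbered 1 lay within 15.1 to 15.9 and all others within 27.2 to 36.2. Log2 fold changes were −0.02 (SE 0.40) for Chd8 siRNA and 0.06 (SE 0.40) for Tsc2 siRNA, and within replicate numbers the intervals were −0.26 to 0.24 and −0.20 to 0.30. Changes above 1.5-fold, or 0.58 on the log2 scale, thus lay outside both of these intervals.

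Adora2b, the adenosine receptor of lowest affinity, had 6.89, 13.7, and 5.40 normalized CPM in control siRNA, 10.6, 15.7, and 11.3 in Chd8 siRNA, with 10.999, 11.9, and 4.59 in Tsc2 siRNA. It was higher in Chd8 siRNA than in control siRNA at each number. The log2 fold change was 0.54 (SE 0.42) and, within replicate numbers, 0.63 (SE 0.24, 95% interval 0.13 to 1.137, unadjusted p = 0.0167, adjusted p = 0.248 in edgeR's quasi-likelihood test). With one library left out, this value ranged from 0.29 to 1.03, and within replicate numbers from 0.33 to 0.84. For Tsc2 siRNA the log2 fold change was 0.08 (SE 0.42) and, within replicate numbers, 0.10 (SE 0.24).

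Adora3, the adenosine receptor coupled to inhibition of cAMP, had 8.59, 2.40, and 2.87 normalized CPM in control siRNA, 10.9, 2.48, and 3.16 in Chd8 siRNA, with 10.5, 2.75, and 3.54 in Tsc2 siRNA. Library 1 was at least 8.59 in each group and all other libraries were at most 3.54. Its annotated span holds the gene Tmigd3 on the same strand, which had a mean of 0.33 counts per library. Each knockdown library was above the control library of its number. Log2 fold changes were 0.26 (SE 0.72) for Chd8 siRNA and 0.27 (SE 0.72) for Tsc2 siRNA, and within replicate numbers 0.19 (SE 0.23) and 0.27 (SE 0.22).

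Entpd1 was at 8.63, 13.7, and 4.03 normalized CPM in control siRNA, at 14.6, 21.0, and 12.2 in Chd8 siRNA, with 13.3, 20.5, and 14.4 in Tsc2 siRNA. Means were 8.77 ± 4.81, 15.9 ± 4.57, and 16.0 ± 3.89 normalized CPM (SD, n = 3). All 6 knockdown libraries were above the control library of their number, but control library 2 was above the lowest library of each knockdown, so that the groups overlapped. In TPM, which weighs counts by transcript length, Entpd1 was at 1.44 to 2.18 in control siRNA, 2.83 to 3.57 in Chd8 siRNA, and 3.01 to 4.19 in Tsc2 siRNA, and neither knockdown overlapped with the control, and 3.22% and 5.26% of all genes tested were likewise above control siRNA in TPM without overlap. The log2 fold change was 0.86 (SE 0.40, unadjusted p = 0.054) for Chd8 siRNA and 0.88 (SE 0.40, unadjusted p = 0.0513) for Tsc2 siRNA, with an adjusted p of 1.00 in both in edgeR's quasi-likelihood test.

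Within replicate numbers Entpd1 was called for Chd8 siRNA, as were 0.535% of all genes tested, with a log2 fold change of 0.94 (SE 0.21, 95% interval 0.49 to 1.39, adjusted p = 0.0493), that is 1.92-fold (1.40 to 2.62). For Tsc2 siRNA it was 0.98 (SE 0.21, 0.53 to 1.43, adjusted p = 0.0521), 1.97-fold (1.44 to 2.69), and just missed the threshold. The call for Chd8 siRNA was close to the threshold and depended on single libraries. It was kept without Tsc2 siRNA library 1 or 3 (adjusted p = 0.0397 and 0.0178). It was lost without control library 1 (0.0631), 2 (0.0888), or 3 (0.291), without Chd8 siRNA library 1 (0.1396), 2 (0.160), or 3 (0.190), and without Tsc2 siRNA library 2 (0.0825). For Tsc2 siRNA, a call was gained without Chd8 siRNA library 3 (adjusted p = 0.0484) or Tsc2 siRNA library 1 (0.0370), and the other 7 fits gave adjusted p-values up to 0.343. The log2 fold change stayed between 0.64 and 1.1395 for Chd8 siRNA and between 0.66 and 1.18 for Tsc2 siRNA, and was lowest without control library 3, the lowest library of all. That library also had the highest summed level of astrocyte markers, 106 normalized CPM against 11.98 to 50.9 in the other 8 libraries, and of fibroblast and vessel markers, 69.2 against 15.7 to 50.1. Its microglial markers summed to 3230 normalized CPM, the lowest of all, against 3619 to 4656. The part of this composition in the Entpd1 difference was not tested.

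Entpd1 uses a pair of coding first exons on chromosome 19. The upstream one, in Entpd1-204, lies at 40612397 to 40612523 with its start codon at 40612421, and the downstream one, in Entpd1-201, Entpd1-203, and Entpd1-209, at 40659770 to 40659900 with its start codon at 40659885 (GRCm38, plus strand). Entpd1-209 is annotated as a target of RNA decay (nonsense-mediated decay) rather than as protein-coding, and held 16.6% of the gene's counts. Its counts were 56, 0, and 25 in control siRNA, 55, 47, and 41 in Chd8 siRNA, with 0, 69, and 177 in Tsc2 siRNA. The start codons are 47464 bases apart, and both lead into the same exon at 40711163 to 40711290. The coding starts are shown to give what differs in the product, with the bases from the start codon to the end of the first exon in capitals, 103 in Entpd1-204 and 16 in Entpd1-201, and the first 36 bases of the shared exon in lower case.
Entpd1-204: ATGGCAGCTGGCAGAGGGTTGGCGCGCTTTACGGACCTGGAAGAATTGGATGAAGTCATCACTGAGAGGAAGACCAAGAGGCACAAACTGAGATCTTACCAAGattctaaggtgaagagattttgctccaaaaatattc
Entpd1-201: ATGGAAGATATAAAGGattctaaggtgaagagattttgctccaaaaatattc
Transcripts with the downstream exon had 4.50, 6.80, and 3.33 normalized CPM in control siRNA, 10.04, 13.9, and 7.89 in Chd8 siRNA, with 6.37, 11.8, and 12.2 in Tsc2 siRNA. All Chd8 siRNA libraries were above all control libraries (10.6 ± 3.06 against 4.88 ± 1.76, SD, n = 3; exact permutation p = 0.1, the smallest possible), as were those of 3.99% of the 41633 transcripts tested singly. Tsc2 siRNA (10.1 ± 3.26, SD, n = 3; exact permutation p = 0.2) overlapped with the control, but was above the control library of its number at all 3 numbers, as Chd8 siRNA was. The upstream exon had 3.66, 6.92, and 0.69 normalized CPM in control siRNA, 4.33, 6.74, and 4.32 in Chd8 siRNA, with 6.58, 8.61, and 1.98 in Tsc2 siRNA. Both knockdowns overlapped with the control there (exact permutation p = 0.5 and 0.6), with Chd8 siRNA above the control of its number at 2 numbers and Tsc2 siRNA at all 3. Whether the knockdowns differ in their use of the exons was not tested. The share of the downstream exon was 49.5% to 82.8% in control siRNA, 64.6% to 69.9% in Chd8 siRNA, and 49.2% to 86.0% in Tsc2 siRNA, so that the shares overlapped. Control libraries 1 and 2 were at 55.2% and 49.5%, and the 82.8% was control library 3 alone, with 16 counts of the upstream exon. The 86.0% was Tsc2 siRNA library 3, where Entpd1-209 had 177 counts.

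**Figure D3:**
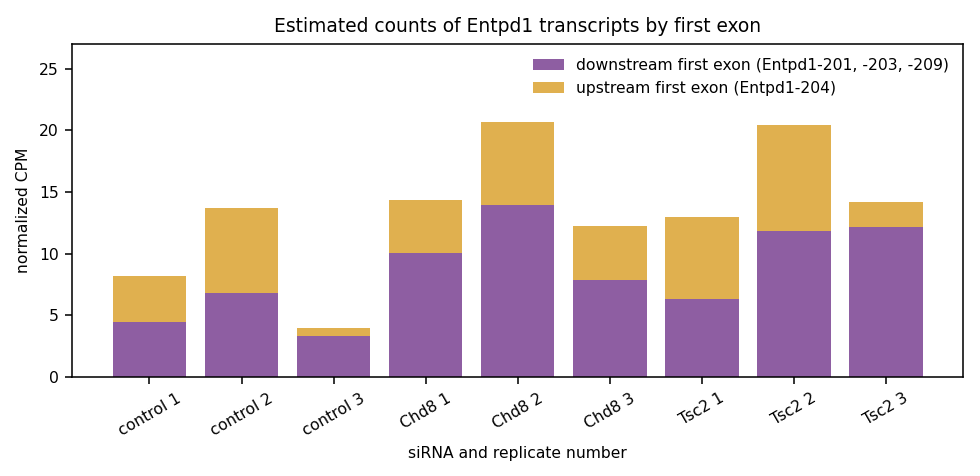
Normalized CPM of Entpd1 transcripts in each library, stacked by first exon, with the downstream exon at the base of each bar. The downstream part is between 3.33 and 6.80 in control siRNA and between 6.37 and 13.9 in the knockdowns.

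The promoters before these exons differed in sequence. RefSeq windows of 250 bases before each start (GRCm38.p6) were matched for 7 of the 9 genes, with 12 windows in all, and none was matched for P2ry6 and Adora2a. The 6 motifs searched, on both strands and with none containing another, were the PU.1 letters GAGGAAG, found in 10.6% of all 32851 promoters, the AP-1 letters TGANTCA (6.75%), the cAMP response element TGACGTCA (1.55%), the TATA box TATAAA (12.4%), the E-box CACGTG (6.02%), and the GC box GGGCGG (32.7%). The window of the upstream exon of Entpd1 (chr19:40612116-40612365) held none of them and was 62.4% G and C. The window of the downstream exon (chr19:40659520-40659769), 47.2% G and C, held the PU.1 letters. The pair is shown because the counts of Entpd1 fall on both exons, with matches in capitals.
Entpd1, upstream: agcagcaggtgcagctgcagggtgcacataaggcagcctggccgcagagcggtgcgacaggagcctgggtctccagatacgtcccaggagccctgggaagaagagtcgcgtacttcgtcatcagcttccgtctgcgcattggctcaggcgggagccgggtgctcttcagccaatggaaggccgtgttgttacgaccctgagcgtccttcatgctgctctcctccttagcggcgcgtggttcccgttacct
Entpd1, downstream: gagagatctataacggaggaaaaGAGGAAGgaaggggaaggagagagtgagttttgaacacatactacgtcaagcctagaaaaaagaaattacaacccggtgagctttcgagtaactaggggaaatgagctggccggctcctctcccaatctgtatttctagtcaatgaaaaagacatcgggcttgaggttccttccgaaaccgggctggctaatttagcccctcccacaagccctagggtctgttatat
The window of Adora3 (chr3:105904171-105904420), 48.8% G and C, held both the PU.1 and the AP-1 letters, with matches in capitals, and is shown because the libraries numbered 1 differed most from the others in Adora3 among the 9 genes.
Adora3: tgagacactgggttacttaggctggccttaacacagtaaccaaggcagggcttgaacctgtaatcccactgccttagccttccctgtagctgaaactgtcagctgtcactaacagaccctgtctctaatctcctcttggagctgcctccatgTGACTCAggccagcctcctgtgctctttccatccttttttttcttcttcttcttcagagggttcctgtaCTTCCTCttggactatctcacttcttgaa
Of the other windows, that of P2rx4 held none of the 6 motifs, those of Adora2b and Nt5e held the GC box, and the upstream window of P2rx7 held the AP-1 letters and the GC box, while its other window held none. The most upstream of the 4 windows of P2ry14 held the PU.1 and the AP-1 letters, and its others held the AP-1 letters, none of the motifs, and the TATA box. A match of letters is a description of the sequence, not a binding site.

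Nt5e rested on few reads. It had 6, 4, and 4 counts in control siRNA, 9, 8, and 16 in Chd8 siRNA, with 18, 18, and 35 in Tsc2 siRNA, or 0.23, 0.25, and 0.17, 0.30, 0.51, and 0.66, and 0.77, 0.90, and 1.02 normalized CPM. The 3 groups did not overlap in any comparison, and 4.17% and 3.87% of all genes were likewise above control siRNA without overlap in Chd8 siRNA and Tsc2 siRNA. The log2 fold change was 1.17 (SE 0.61) for Chd8 siRNA and 2.05 (SE 0.61) for Tsc2 siRNA, and within replicate numbers 1.115 (SE 0.80) and 2.02 (SE 0.79). Since Nt5e entered the tested genes through knockdown libraries, these values and the lack of overlap are given as a description with no p-value, and nothing is read from the comparison with all genes.

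None of these counts was assigned to the transcript that encodes CD73. Nt5e-201, with 9 exons, had 0 counts in all 9 libraries, and all counts of the gene were in transcripts annotated as retaining an intron. Of these, 92.4% were assigned to Nt5e-202, which had 6, 3, and 3 counts in control siRNA, 8, 8, and 16 in Chd8 siRNA, with 13, 17, and 35 in Tsc2 siRNA. Nt5e-202 covers 413 bases of exon 1 and runs on for 3189 bases into intron 1, so that 88.5% of it is intronic sequence. The transcripts part at the end of exon 1, at base 88328030 of chromosome 9 (GRCm38, plus strand). The bases on either side are shown from the GENCODE transcripts, 5′ to 3′, because the transcripts differ there. Lower case marks the last 30 bases of exon 1 in both, and capitals mark the 30 bases that follow, from exon 2 in Nt5e-201 and from intron 1 in Nt5e-202.
Nt5e-201: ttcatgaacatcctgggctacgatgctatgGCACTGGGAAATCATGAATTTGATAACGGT
Nt5e-202: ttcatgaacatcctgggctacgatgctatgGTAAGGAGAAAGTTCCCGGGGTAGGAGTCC
The 3 genes whose log2 CPM followed Nt5e most closely over the 9 libraries were Gm5165, Rsl1d1, and Magoh, chosen as the highest of all genes tested by Pearson r. No coefficient is given, since the values of Nt5e form separate clusters by siRNA.

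**Figure D4:**
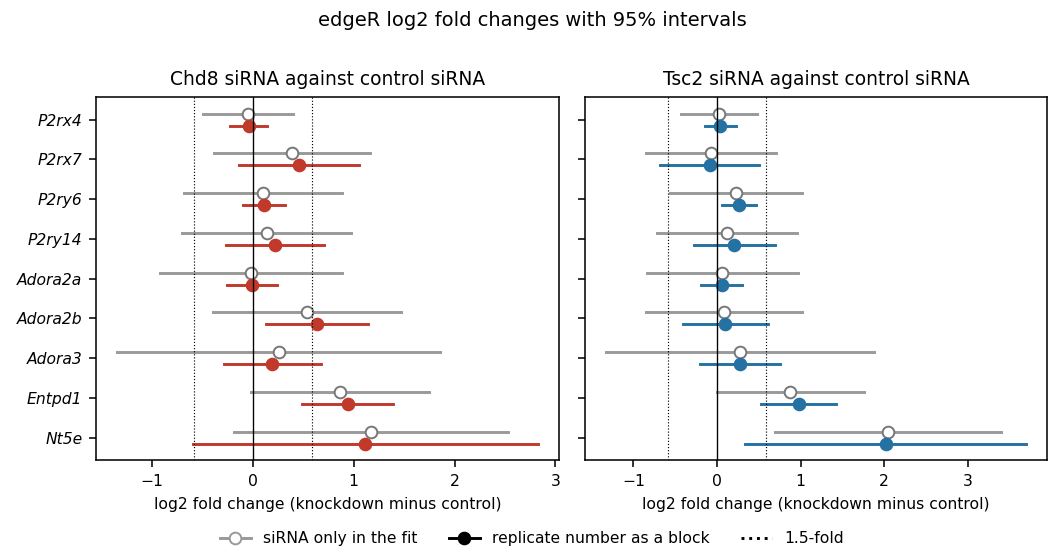
Log2 fold changes of the 9 genes against control siRNA with 95% intervals, without the replicate number (open gray circles) and within replicate numbers (filled circles), with dotted lines at 1.5-fold. Intervals within replicate numbers are narrower for every gene except Nt5e, and Entpd1 lies at 0.94 and 0.98.

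Across the 9 genes, 0 were called for Chd8 siRNA and 0 for Tsc2 siRNA by edgeR's quasi-likelihood test, with an adjusted p under 0.05 and a change above 1.5-fold required. The test called 0% of the 16273 genes in each of these comparisons, with 622 and 425 genes at an unadjusted p under 0.05, and DESeq2 called 9 and 6 genes, 0.0553% and 0.0369%, none of them among the 9. Within replicate numbers, 1 of the 9 was called for Chd8 siRNA, as higher, where 0.246% of all genes were called as higher, and 0 for Tsc2 siRNA, where 0.387% were called. The 9 genes had a median log2 fold change of 0.26 under Chd8 siRNA and 0.12 under Tsc2 siRNA, beside −0.02 for all genes in both, and 7 and 8 of the 9 were positive, beside 47.8% and 47.6% of all genes. In normalized CPM, Nt5e alone among the 9 did not overlap with control siRNA. Of the 9, 5 were higher at all 3 numbers for Chd8 siRNA (P2ry6, Adora2b, Adora3, Entpd1, Nt5e) and 5 for Tsc2 siRNA (P2ry6, Adora2a, Adora3, Entpd1, Nt5e), beside 17.7% and 15.5% of all genes. Without Nt5e, which the filter kept through knockdown libraries, 6 and 7 of 8 were positive with medians of 0.20 and 0.10, 4 and 4 of 8 were higher at all 3 numbers, and 0 of 8 did not overlap with control siRNA. Both comparisons use the same 3 control libraries.

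Chd8 siRNA and Tsc2 siRNA were also compared with each other. None of the 9 genes was called, with or without the replicate number in the fit, where 0% and 0.221% of all genes were called, 504 genes had an unadjusted p under 0.05 without it, and DESeq2 called 5 genes, 0.0307%, none of them among the 9. Entpd1 differed by a log2 fold change of −0.01 (SE 0.39) and within replicate numbers by −0.04 (95% interval −0.47 to 0.40). Adora2b was higher in Chd8 siRNA by 0.54 within replicate numbers (95% interval 0.04 to 1.03, adjusted p = 0.419), and P2rx7 by 0.55 (−0.05 to 1.137, adjusted p = 0.513). With one library left out, these values ranged from 0.23 to 0.86 for Adora2b and from 0.17 to 0.86 for P2rx7. Nt5e was lower in Chd8 siRNA without overlap, as 1 of the 9 genes beside 8.44% of all genes that did not overlap in either direction, with a log2 fold change of −0.88 (SE 0.57), again as a description.

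Of the 52 transcripts of the 9 genes, 30 were tested, and 0 were called in any of the 3 comparisons by edgeR without or within replicate numbers, each of which called 0% of 41633 transcripts. DESeq2 also called 0 of the 30, with a lowest adjusted p of 0.102 against control siRNA, whereas it called 188, 172, and 187 transcripts in all for Chd8 siRNA, Tsc2 siRNA, and the knockdowns against each other, that is 0.452%, 0.413%, and 0.449%. Of the 19 other purinergic genes tested, 0 were called in any of the 3 comparisons, and their median log2 fold changes were 0.04 for Chd8 siRNA and 0.02 for Tsc2 siRNA. P2ry2 came closest. It had 54.2, 14.6, and 17.8 normalized CPM in control siRNA, 47.1, 14.4, and 13.3 in Chd8 siRNA, with 52.2, 24.04, and 32.2 in Tsc2 siRNA. It was lower in Chd8 siRNA than in Tsc2 siRNA at each number, with a log2 fold change of −0.73 (SE 0.17, adjusted p = 0.108) within replicate numbers. Without Tsc2 siRNA library 1 it was called within replicate numbers, at −1.01 against Tsc2 siRNA (adjusted p = 0.0049) and, between Tsc2 siRNA and control siRNA, at 0.80 (adjusted p = 0.0149).

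The replicate number held more of the variance between libraries than the siRNA did in all of these genes except Entpd1 and Nt5e. In the fit with siRNA and number, 7 of the 9 genes differed between numbers at an FDR of 0.05 in edgeR's quasi-likelihood test, where 25.0% of all genes tested did. The exceptions were P2rx7 (adjusted p = 0.256) and Nt5e (adjusted p = 0.905). The number held 98.4% of the variance of log2 CPM between libraries in Adora2a, 98.0% in Adora3, 91.1% in P2ry6, and 88.0% in P2rx4, beside a median of 41.9% over all genes. The siRNA held 48.8% in Entpd1, beside a median of 18.0%. It held 87.9% in Nt5e, a description only, since the filter on counts kept that gene through knockdown libraries.

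**Figure D5:**
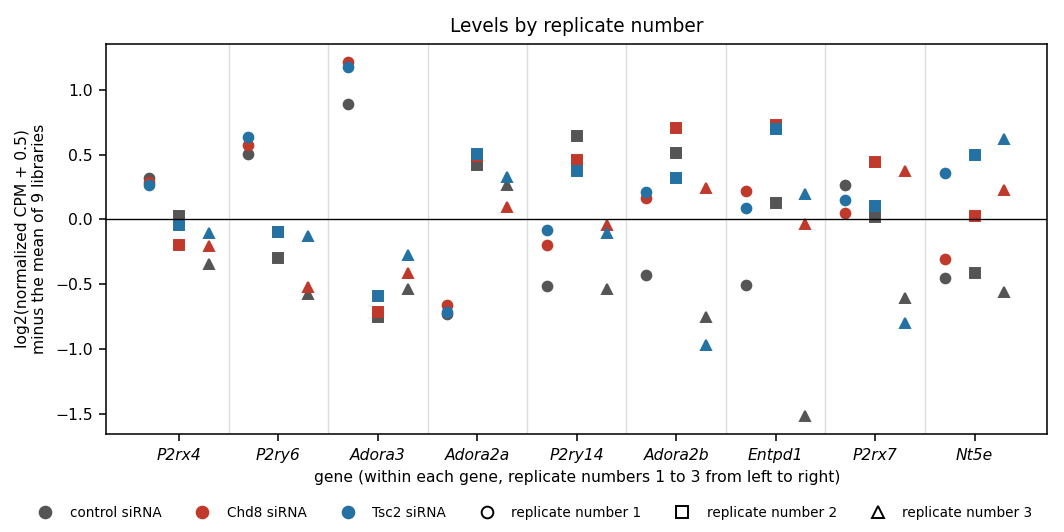
Log2 of normalized CPM plus 0.5, minus the mean of the 9 libraries, for each gene, with the replicate numbers 1 to 3 from left to right and the siRNA as the color. The libraries numbered 1 are apart from the others in Adora3 (above) and Adora2a (below), whereas Nt5e is ordered by siRNA.

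The genes fell into sets by the number at which they were high. In the libraries numbered 1, Adora3 was higher than in the others by 1.64 on the log2 scale, P2ry6 by 0.86, and P2rx4 by 0.44, and Adora2a differed by −1.05. Adora3 and Adora2a, receptors of one ligand with opposite coupling to cAMP, thus ran in opposite directions, with 8.59 to 10.9 normalized CPM of Adora3 and 15.1 to 15.9 of Adora2a at number 1, 2.40 to 2.75 and 34.1 to 36.2 at number 2, and 2.87 to 3.54 and 27.2 to 32.0 at number 3. Among the 36 pairs of genes, the 3 most alike over the 9 libraries were formed by P2rx4, P2ry6, and Adora3, and the 3 least alike paired Adora2a with each of these 3. Again no coefficient is given, since the libraries form separate clusters by number. In the libraries numbered 2, Entpd1 was higher by 0.78, Adora2b by 0.77, and P2ry14 by 0.74 on the log2 scale, as was Adora2a by 0.71. Without control library 2, Entpd1, Adora2b, and P2ry14 were no longer called between numbers (adjusted p = 0.0616, 0.0876, and 0.219), and the count fell to 4 of 9, namely P2rx4, P2ry6, Adora2a, and Adora3. Without control library 3, Adora2b was lost (adjusted p = 0.053), and without Chd8 siRNA library 3, P2rx7 was gained (adjusted p = 0.0493).

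Summed markers of other cells moved with the number as well, although single genes of a list did not all follow its sum. The summed level of 8 astrocyte markers, of which 6 were above 3 counts in every library, was 11.98 to 14.6 normalized CPM at number 1, 24.4 to 27.3 at number 2, and 47.0 to 106 at number 3. Of these, S100b was lower at number 3 than at number 2 in each siRNA group. The 6 fibroblast and vessel markers, 4 of them above 3 counts in every library, summed to 15.7 to 20.2, 21.2 to 35.9, and 31.3 to 69.2 normalized CPM. Col1a1 had 1.97 to 2.56 normalized CPM at number 1 and 13.2 to 43.9 at number 3. The vessel marker Pecam1 went the other way, with 8.23 to 10.1 and 4.52 to 5.96. Col1a2 was highest at number 2 in each siRNA group. The 13 microglial markers summed to 4076 to 4656, 4037 to 4317, and 3230 to 4069 normalized CPM. Within this sum single markers shifted in opposite directions. Itgam had 681 to 759 normalized CPM at number 1 and 263 to 433 in the other libraries, and Trem2 61.8 to 82.1 and 107 to 141. Of 4 markers of border macrophages, 2 were above 3 counts in every library and Lyve1 was at 0 in all, with sums of 73.5 to 86.4, 65.1 to 75.2, and 86.8 to 90.3 normalized CPM at numbers 1, 2, and 3. The 8 markers of the oligodendrocyte lineage, 2 of them above 3 counts in every library, were lowest at number 3, with 24.2 to 27.3, 24.4 to 26.7, and 11.8 to 19.9 normalized CPM. The 4 neuronal markers summed to at most 1.67 normalized CPM. The part of these cells in the differences between numbers was not tested. Among the 19 other purinergic genes, 7 differed between numbers, namely P2ry2, Entpd7, Enpp2, Cd38, Bst1, Slc28a2, and Lrrc8a. P2ry2 was higher by 1.45 and Cd38, an enzyme that consumes NAD, by 1.71 on the log2 scale at number 1, as were Adora3, P2ry6, and P2rx4.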

How the data were processed

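RNA-seq of 9 libraries was used, 3 for each siRNA, grouped by the siRNA in their labels. Per the labels and methods, reads were quantified with Salmon 0.14.1 (mm10), and the deposited table holds the authors' estimated counts of each transcript in each library, neither normalized nor pooled. The labels name a stranded SMARTer kit and the study's methods an Illumina total RNA preparation, and the strand setting of the counting is not given in the sources used here. Between 26.8% and 32.1% of the values of a library were not whole numbers.

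Of 140948 transcripts, 139852 were matched to genes of GENCODE mouse release M21 (GRCm38), and the 1096 others, with 0.27% of all counts, were left out of gene tests. Counts were summed to genes and rounded. Genes were tested with edgeR's quasi-likelihood F test (edgeR 4.0.16, R 4.3.3) with filterByExpr as the count filter and TMM scaling. One fit held all 9 libraries with the siRNA as the factor, with Benjamini-Hochberg adjustment over all 16273 genes tested. Calls needed an adjusted p under 0.05 and a change above 1.5-fold. Standard errors were calculated back from the F statistic. Single values were compared with two-sided exact permutation tests on log2 CPM with a pseudocount of 0.5. TPM used annotated full lengths.

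Sample titles give the replicate numbers from which the pairing was taken. Deviations from the group means correlated at 0.24 or more in each of the 9 pairs of same-numbered libraries, so that the numbers were taken to pair the samples. The methods state that each biological replicate is a culture from its own mouse brain, but not that one number is one culture, so that p-values measure the spread between these libraries. The alternatives were other scalings and count filters, DESeq2 1.42.0, limma-voom (limma 3.58.1), fits of 2 groups, other sums of transcripts, the block, and each library left out. The 9 genes, the 34 other purinergic genes, and the cell markers were chosen with earlier results of these data known. The text names all 9 genes, of the others those called in any fit and the highest of each role with a tested gene, the 3 genes most like the gene of lowest p without the block, and the 3 most and least alike pairs. P2ry12, P2ry13, Adora1, the genes at 0, and genes overlapping the 9 were named in addition, after their values were seen. Protein sequences were not used here.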

Additional observations from a re-analysis of the deposited data

How the results depend on the processing

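Without the block, no alternative (RLE, upper quartile, or no scaling factors, 2 other count filters, DESeq2, limma-voom, fits of 2 groups, protein-coding transcripts or the top transcript only, no fold threshold) called any of the 9 or of the other purinergic genes. With the replicate block 1 of the 9 genes, Entpd1, was called for Chd8 siRNA, also without a threshold on fold change, an alternative added after the data were seen. The block changed no other call of the 9 genes or of the other purinergic genes. With one library left out, 0 to 1 of the 9 genes were called for Chd8 siRNA, 0 to 1 for Tsc2 siRNA, and 0 to 1 of the other purinergic genes for Tsc2 siRNA, all within the block, and 4 to 8 of the 9 differed between replicate numbers.

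Signs of log2 fold changes near zero turned. For P2rx4 in Tsc2 siRNA the top transcript alone gave −0.040. Between Chd8 siRNA and Tsc2 siRNA, P2ry14 went from 0.02 to −0.015 without scaling factors and in limma-voom and to −0.12 with protein-coding transcripts. Adora3 there went from −0.01 to 0.080 in limma-voom, 0.056 with protein-coding transcripts, and 0.045 with the top transcript, and Entpd1 to 0.051 and 0.22 with the latter pair. Without the block, leaving out one library turned signs with these ranges: for Chd8 siRNA against control P2rx4 −0.23 to 0.13, P2ry6 −0.25 to 0.49, P2ry14 −0.096 to 0.69, Adora2a −0.30 to 0.24, and Adora3 −0.72 to 1.07. For Tsc2 siRNA against control they were P2rx4 −0.13 to 0.20, P2rx7 −0.30 to 0.21, P2ry6 −0.069 to 0.62, P2ry14 −0.10 to 0.67, Adora2a −0.22 to 0.36, Adora2b −0.17 to 0.58, and Adora3 −0.56 to 1.09. Between the knockdowns they were P2rx4 −0.26 to 0.053, P2ry6 −0.48 to 0.17, P2ry14 −0.21 to 0.20, Adora2a −0.37 to 0.18, Adora3 −0.99 to 0.81, and Entpd1 −0.26 to 0.20. With the block, fewer signs turned. For Chd8 siRNA, P2rx4 gave 0.032 without control 2 and 0.024 without Chd8 2, and Adora2a 0.032 without control 3 and 0.084 without Chd8 3. For Tsc2 siRNA, P2rx4 gave −0.053 without control 3 and −0.015 without Tsc2 3, P2rx7 0.12 without either control 1 or Tsc2 3, and Adora2b −0.056 without control 1 and −0.22 without Tsc2 1. Between the knockdowns, P2ry14 gave −0.093 without Chd8 3 and −0.13 without Tsc2 2, Adora2a 0.020 without Chd8 3, and Entpd1 0.021 without Chd8 2 and 0.23 without Tsc2 3. The cause was not tested.

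Nt5e has no value with protein-coding transcripts only, where it has 0 counts, nor in the fit of Chd8 siRNA and control siRNA alone, where it did not pass the filter. Depth was lowest for Nt5e, with 4 to 35 counts per library.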
